A study of Mus musculus with 20 samples.

Results

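The Hox genes were taken as every gene symbol made of Hoxa, Hoxb, Hoxc or Hoxd and a number, 39 of the 35240 gene symbols measured in 20 RNA-seq libraries of mouse colonic organoids. Values of transcripts with the same symbol were summed. The level is called normalised expression here. It is read, from the form of the values and the tools named and not from a stated unit, as TPM, a scale per transcript length that lets genes be compared with each other, divided by a scaling factor of the library. Of the 39 genes, 23 had a mean of at least 1 over the 20 libraries and were tested, and the other 16 were counted and set aside. The cultures, called colonoids, were grown in Matrigel and IntestiCult medium from colonic crypts of wildtype (WT) C57BL/6 mice or Tnfr2-/- mice (B6.129S2-Tnfrsf1b tm1Mwm/J), which carry a whole-body knockout of tumor necrosis factor receptor 2. The study's methods name the distal colon of mice of 8 weeks of age and both sexes as the source. All colonoids had gone through 5 passages before they were seeded, and were collected after 1, 2, 3, 5 or 7 further days, counted as days post-passage. Each genotype had 2 mice. Libraries with the same replicate number are called 1 mouse here and treated as 1 culture line, although no label states that a number marks the same mouse on every day. Days 1, 2 and 3 are called early and days 5 and 7 late, which gave 6 early and 4 late libraries per genotype.

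Hox genes encode homeodomain transcription factors that mark position along the head-to-tail axis of the embryo. Mammals carry them in clusters A to D, and in each cluster the paralogue number runs from the genes of anterior regions to those of the hindmost regions. In the gut, genes of high paralogue number are known to mark the hindgut, which forms the colon, and in the adult colon both the epithelium and the underlying mesenchyme express them. HOX proteins bind DNA together with TALE partners of the PBX and MEIS families.

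The members differ in sequence where their reads have to be told apart. The stretches of the homeobox that end at the codons of the recognition helix are shown for the group 13 paralogues that led the levels and for the other Hoxd genes that the time course turns on. They were read from GENCODE transcripts of mm10 (GRCm38), each lies in 1 coding exon, and capitals mark the bases that differ from Hoxd13, which is therefore in lower case.
Hoxd13, chr2:74670014-74670088, plus strand: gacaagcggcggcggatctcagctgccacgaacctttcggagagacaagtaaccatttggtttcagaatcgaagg
Hoxa13, chr6:52258949-52259023, minus strand: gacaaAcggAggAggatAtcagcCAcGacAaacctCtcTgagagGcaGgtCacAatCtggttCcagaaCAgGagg
Hoxb13, chr11:96196104-96196178, plus strand: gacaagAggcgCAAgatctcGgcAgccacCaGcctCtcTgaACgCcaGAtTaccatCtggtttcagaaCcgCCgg
Hoxd12, chr2:74675927-74676001, plus strand: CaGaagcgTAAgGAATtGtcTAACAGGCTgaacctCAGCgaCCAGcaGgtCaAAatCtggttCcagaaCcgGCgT
Hoxd11, chr2:74684001-74684075, plus strand: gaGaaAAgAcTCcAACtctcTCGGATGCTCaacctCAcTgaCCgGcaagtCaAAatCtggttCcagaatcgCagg
Hoxd10, chr2:74694225-74694299, plus strand: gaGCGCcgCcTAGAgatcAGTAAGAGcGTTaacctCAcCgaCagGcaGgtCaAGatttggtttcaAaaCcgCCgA
Over these 75 bases, Hoxa13 shared 74.7% and Hoxb13 73.3% of positions with Hoxd13. The cluster neighbours were further away, at 58.7% for Hoxd11, 54.7% for Hoxd10 and 50.7% for Hoxd12. Even so, no run of 31 bases in the transcripts of Hoxd10, Hoxd12, Hoxd13, Hoxb13, Hoxa10 or Hoxa11 was found in a transcript of another gene. Among the tested members, such runs were most frequent in Hoxa2 and Hoxa3, with 13.7% and 12.6% of their runs shared with another symbol, mainly the read-through transcript Gm28308 in the HoxA cluster. Their values, and those of Gm28308, depend on how the reads were divided between them.

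The colonoids expressed the HoxA, HoxB and HoxD clusters and were close to 0 for HoxC. Of the summed normalised expression of all 39 genes over the 20 libraries, 47.6% came from HoxA, 27.5% from HoxD, 24.7% from HoxB and 0.170% from HoxC. At least 1 on average was reached by 10 of 11 genes of HoxA, 7 of 10 of HoxB, 6 of 9 of HoxD and 0 of 9 of HoxC. The genes of paralogue numbers 9 to 13 made up 85.1% of the sum, and in single libraries the share ran from 77.2 to 89.4%. Group 13 alone gave 40.5%, followed by group 9 with 18.7%, group 10 with 17.1% and group 11 with 7.85%.

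**Figure D1:**
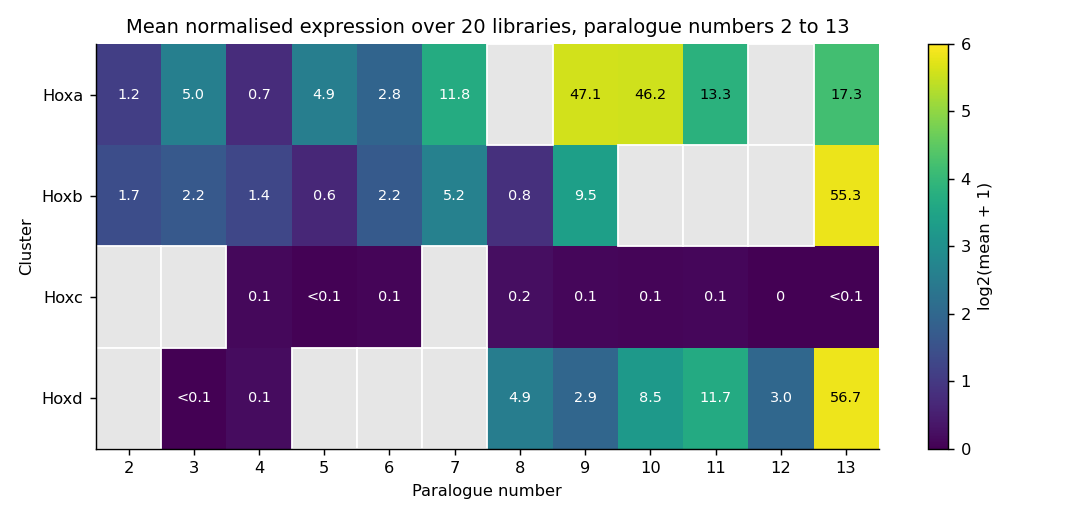
Mean normalised expression of the Hox genes of paralogue numbers 2 to 13 over 20 libraries, drawn as log2(mean + 1), with the cluster on the vertical and the paralogue number on the horizontal axis. The number in a cell is the mean, grey marks a paralogue that the cluster lacks, and the bright cells are Hoxa9, Hoxa10, Hoxb13 and Hoxd13, while the Hoxc row is near 0.

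Hoxd13 and Hoxb13, the genes of the hindmost identity in their clusters, had the highest levels. Hoxd13 had a mean normalised expression of 56.7 ± 17.8 (SD over 20 libraries) and exceeded 79.3% of the 13539 gene symbols tested. Hoxb13 had a mean of 55.3 ± 30.1 with a far wider range, from 15 to 143. Hoxd13 is known from the digits, the genital bud and the anal sphincter, and Hoxb13 from the prostate and the tail end of the body. The third member of the group, Hoxa13, needed with Hoxd13 in the hindgut, stood lower at 17.3 ± 5.74. In HoxA the highest levels belonged to Hoxa9 with 47.1 ± 16.1 and Hoxa10 with 46.2 ± 7.97, genes of posterior trunk and hindgut, and the spread of Hoxa10 over the libraries was small for its level. The means of Hoxd13 and Hoxb13, and those of Hoxa9 and Hoxa10, differed by less than the SD of either gene.

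A middle group of genes lay around 10 units. It held Hoxa11 with 13.3 ± 3.21, Hoxa7 with 11.8 ± 3.57, Hoxd11 with 11.7 ± 5.78, Hoxb9 with 9.49 ± 4.55 and Hoxd10 with 8.45 ± 6.51, whose means again differed by less than their SDs from one neighbour to the next. The other 13 tested members, which include most of the anterior and middle genes, lay lower, among them 5.24 for Hoxb7, 5.01 for Hoxa3, 4.90 for Hoxa5, 4.87 for Hoxd8, 2.99 for Hoxd12, 2.93 for Hoxd9, 2.79 for Hoxa6, 2.25 for Hoxb6, 2.21 for Hoxb3, 1.66 for Hoxb2, 1.41 for Hoxb4, and down to 1.15 for Hoxa2. Values of a few units rest on few reads, so small steps among these genes could not be resolved. Of the 16 genes set aside, Hoxb8, Hoxa4 and Hoxb5 were the highest with means of 0.769, 0.697 and 0.601. The remaining ones, among them all of HoxC and Hoxb1, Hoxd3 and Hoxd4, had means of 0.162 or less, and Hoxc12 and Hoxd1 were listed at 0 in all 20 libraries.

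The identity of the cultures was checked on marker lists. Summed normalised expression of 8 epithelial markers ran from 11722 to 20155 per library. Fibroblast markers were present as well, with all 12 of 12 at a mean of at least 1 and sums of 2459 to 5035 in early WT, 1484 to 4981 in late WT, 3476 to 5258 in early Tnfr2-/- and 4119 to 10005 in late Tnfr2-/- libraries. Sums stayed between 0.287 and 20.1 for 4 smooth muscle markers, up to 4.24 for 4 endothelial markers, up to 5.22 for 5 immune markers and up to 10.2 for 6 markers of enteric neurons and glia, of which only Ret reached a mean of 1. From early to late days, 5 of 8 epithelial markers rose and 2 fell, 4 of 12 fibroblast markers rose, and Actg2 of smooth muscle and Ret rose, by limma over both genotypes, where 18.0% of all symbols tested rose and 14.7% fell. Over all days, 3 of 8 epithelial and 3 of 12 fibroblast markers were higher in Tnfr2-/- libraries, against 4.51% of all symbols. Tnfrsf1b, the targeted gene, was lower in Tnfr2-/- than in WT libraries (-1.35 ± 0.17, adjusted p = 9.7e-05, limma, 10 libraries per genotype), with 14.9 ± 2.67 in early WT against 3.85 ± 1.02 in early Tnfr2-/- libraries, and 15.9 ± 3.99 in late WT against 8.74 ± 1.82 in late Tnfr2-/- libraries (SD). These are bulk samples that hold epithelial and mesenchymal cells, so fewer cells of a type and less RNA per cell cannot be told apart.

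The first comparison asked how Hox expression moved as the colonoids grew from days 1 to 3 to days 5 and 7. The 5′ end of the HoxD cluster rose in both genotypes. All values of this and the following comparisons are differences in log2(normalised expression + 1) with their standard errors (SE), from limma across the 13539 symbols, with p-values adjusted by the Benjamini-Hochberg method over all of them.

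In WT colonoids Hoxd10 was measured on days 1, 2, 3, 5 and 7 at 3.10, 3.60, 4.10, 10.7 and 28 in mouse 1 and at 5.24, 1.53, 3.74, 5.02 and 17 in mouse 2. In Tnfr2-/- colonoids it stood at 7.82, 3.13, 4.97, 10.5 and 13.6 in mouse 1 and at 5.61, 7.06, 5.40, 11.5 and 17.5 in mouse 2. Day 7 held the highest value in all 4 mice, and among WT libraries the day 5 value of mouse 2 still lay within the early range. The rise from early to late was 1.66 ± 0.27 (adjusted p = 0.0012) in WT and 1.11 ± 0.27 (adjusted p = 0.010) in Tnfr2-/- colonoids. Hoxd11, its neighbour, took 8.95, 8.61, 7.63, 18.2 and 25.7 in WT mouse 1, 9.43, 3.34, 6.46, 11.5 and 13.7 in WT mouse 2, 8.11, 9.53, 9.15, 15.6 and 19.2 in Tnfr2-/- mouse 1 and 7.05, 9.73, 5.21, 16 and 20.4 in Tnfr2-/- mouse 2 over the same days. Every late library exceeded every early library of its genotype, with a rise of 1.12 ± 0.24 (adjusted p = 0.0059) in WT and 1.06 ± 0.24 (adjusted p = 0.0076) in Tnfr2-/- colonoids.

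Hoxd12, the least expressed gene of this end of the cluster, reached 2.19 and 6.63 in mouse 1 and 3.04 and 5.90 in mouse 2 on days 5 and 7 in WT, against 0.384 to 3.07 in early libraries. In Tnfr2-/- colonoids the late values were 4.61 and 5.34 in mouse 1 and 3.99 and 8.88 in mouse 2, against 0.814 to 5.28 early. The early and late ranges overlapped in both genotypes through the day 3 library of mouse 1, and the rise was 1.40 ± 0.27 (adjusted p = 0.0034) in WT and 1.19 ± 0.27 (adjusted p = 0.0078) in Tnfr2-/- colonoids. Hoxd13 stood at 32.9, 48.4, 51.7, 70.5 and 88.4 in WT mouse 1, 41, 36, 35.3, 44.2 and 58.3 in WT mouse 2, 46.9, 49.9, 52.6, 83.3 and 83.2 in Tnfr2-/- mouse 1 and 49.3, 53.3, 47, 81.9 and 79.2 in Tnfr2-/- mouse 2 on days 1, 2, 3, 5 and 7. In Tnfr2-/- colonoids all 4 late values lay above all 6 early ones, whereas in WT the late values of mouse 2 overlapped the early values of mouse 1. The rise was smaller than for its neighbours on the log2 scale, 0.64 ± 0.16 (adjusted p = 0.015) in WT and 0.71 ± 0.16 (adjusted p = 0.0083) in Tnfr2-/- colonoids, though no test of the difference between genes was made. Summed over Hoxd10 to Hoxd13, normalised expression ran from 42.0 to 66.5 in early and 63.8 to 149 in late WT libraries, and from 59.9 to 72.0 in early and 113 to 126 in late Tnfr2-/- libraries. The other tested HoxD genes did not pass the test over both genotypes: Hoxd8 had a difference of -0.38 ± 0.28 (adjusted p = 0.33), and Hoxd9 one of 0.069 ± 0.18 (adjusted p = 0.80).

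**Figure D2:**
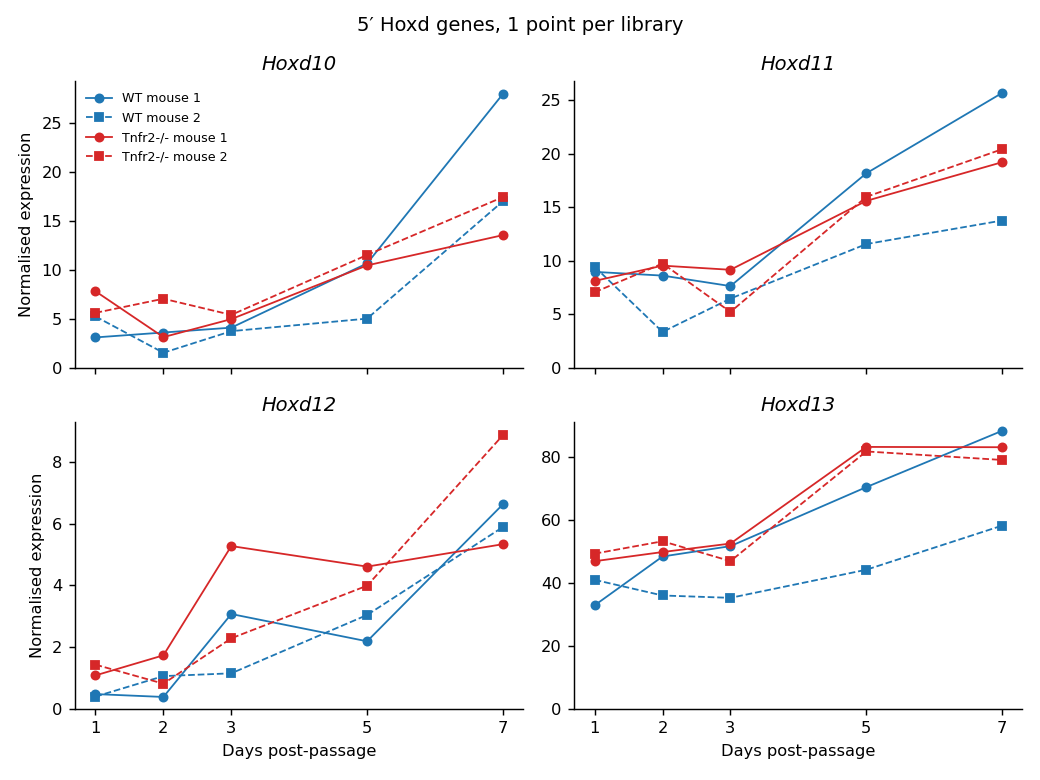
Normalised expression of Hoxd10, Hoxd11, Hoxd12 and Hoxd13 against days post-passage, 1 point per library, with blue for WT, red for Tnfr2-/-, circles for mouse 1 and squares for mouse 2. Every line stands higher on day 7 than on day 3, by the least for Hoxd12 in Tnfr2-/- mouse 1, at 5.28 and 5.34.

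Since these 4 genes are neighbours on mouse chromosome 2 and rose together, the 250 bases before their annotated starts are shown. They come from RefSeq on GRCm38 (mm10), plus strand, and capitals mark TTTAT or its complement ATAAA, the core of sites bound by posterior HOX and caudal-type CDX factors.
Hoxd13, chr2:74667975-74668224: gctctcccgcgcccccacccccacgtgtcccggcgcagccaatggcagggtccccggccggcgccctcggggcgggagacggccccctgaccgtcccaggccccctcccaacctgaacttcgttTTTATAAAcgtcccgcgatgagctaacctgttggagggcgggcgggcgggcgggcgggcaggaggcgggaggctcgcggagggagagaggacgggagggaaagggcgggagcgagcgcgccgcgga
Hoxd12, chr2:74674763-74675012: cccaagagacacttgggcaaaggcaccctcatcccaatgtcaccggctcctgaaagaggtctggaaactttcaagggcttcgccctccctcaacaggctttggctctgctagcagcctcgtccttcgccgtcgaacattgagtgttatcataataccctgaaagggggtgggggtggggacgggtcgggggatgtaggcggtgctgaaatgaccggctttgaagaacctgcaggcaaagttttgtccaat
Hoxd11, first start, chr2:74679308-74679557: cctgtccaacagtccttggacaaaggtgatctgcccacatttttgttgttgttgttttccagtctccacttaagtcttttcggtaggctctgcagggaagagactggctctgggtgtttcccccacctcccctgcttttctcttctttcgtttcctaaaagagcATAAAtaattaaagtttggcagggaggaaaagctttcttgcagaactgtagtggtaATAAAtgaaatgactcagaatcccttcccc
Hoxd11, second start, chr2:74682073-74682322: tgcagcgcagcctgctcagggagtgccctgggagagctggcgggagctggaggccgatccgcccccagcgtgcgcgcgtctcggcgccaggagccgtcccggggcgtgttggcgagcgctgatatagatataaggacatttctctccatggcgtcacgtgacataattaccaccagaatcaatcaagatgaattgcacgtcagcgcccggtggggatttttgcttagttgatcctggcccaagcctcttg
Hoxd10, chr2:74691641-74691890: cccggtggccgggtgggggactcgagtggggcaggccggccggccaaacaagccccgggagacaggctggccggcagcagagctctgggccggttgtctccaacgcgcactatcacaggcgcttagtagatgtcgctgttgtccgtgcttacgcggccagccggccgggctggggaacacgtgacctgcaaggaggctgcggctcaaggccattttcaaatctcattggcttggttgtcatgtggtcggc
Searched on both strands, the TTTAT core was present before Hoxd13 and before the first Hoxd11 start, and these letters were not in the windows of Hoxd12, Hoxd10 and the second Hoxd11 start. The match before Hoxd13 is a palindrome that also holds TATAAA, so the 2 motifs overlap there. Windows with the core made up 9 of 24 Hox windows (of 22 Hox genes with a RefSeq entry) and 37.3% of all 32851 windows. TATAAA was in 4 of 24 Hox windows and 12.4% of all, CCATAAA, which holds the core, in 1 of 24 and 2.43%, and TGATTNAT in 2 of 24 and 2.82%. The windows of the Hox genes had a median of 12.5 CpG dinucleotides against 6 over all windows, with 31 before Hoxd13, 20 before Hoxd10, 10 before Hoxd12 and 2 and 20 before the first and the second start of Hoxd11.

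The rise extended over the posterior genes of the other clusters. With both genotypes together, 10 of 23 tested Hox genes were higher late and 0 lower by limma, while 18.0% of all symbols tested were called higher, 14.7% lower and 32.7% in either direction. At an unadjusted p under 0.05, 11 Hox genes were higher and 0 lower, against 23.2 and 19.4% of all symbols. The 11 include Hoxa2, which had a mean under 1 over the early libraries and so is no support for a rise. Of the 11 tested genes of paralogue numbers 9 to 13, 9 were called higher, with a median difference of 0.66, and of the 12 genes of numbers 1 to 8, 1 was called, Hoxa3, with a median of -0.035. The median over all symbols was 0.015. Hoxa11 and Hoxd9 were the posterior genes that did not pass the test.

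Hoxa13 rose by 0.66 ± 0.15 (adjusted p = 0.0035) over both genotypes. In WT its early libraries ran from 8.73 to 15.6 and its late ones from 16 to 30.5, and in Tnfr2-/- colonoids they ran from 10.1 to 18 early and from 19.9 to 25.3 late. The early and late ranges did not overlap in either genotype. Hoxa9 rose by 0.64 ± 0.17 (adjusted p = 0.011), with 22.9 to 60.1 early and 58.7 to 81.4 late in WT and 25.9 to 53.1 early and 38.5 to 59.7 late in Tnfr2-/- libraries. These ranges overlapped in both genotypes, and the difference in Tnfr2-/- colonoids alone did not pass the test (0.44 ± 0.24, adjusted p = 0.23). Hoxa10, the steadiest of the high genes, rose by 0.29 ± 0.088 (adjusted p = 0.020). Among HoxB genes, Hoxb9 rose by 0.65 ± 0.15 (adjusted p = 0.0049) and Hoxb13 by 0.73 ± 0.21 (adjusted p = 0.016). Counted by mouse, the mean of log2 values was higher late than early in 4 of 4 mice for 10 of 23 Hox genes, namely Hoxa2, Hoxa9, Hoxa10, Hoxa13, Hoxb9, Hoxb13 and Hoxd10 to Hoxd13, and lower in 4 of 4 mice for 0, whereas 23.7% of all symbols tested were higher and 20.3% lower in all 4. Hoxa2 reached the mean of 1 needed for testing only through the late libraries, so it is no support for a rise.

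**Figure D3:**
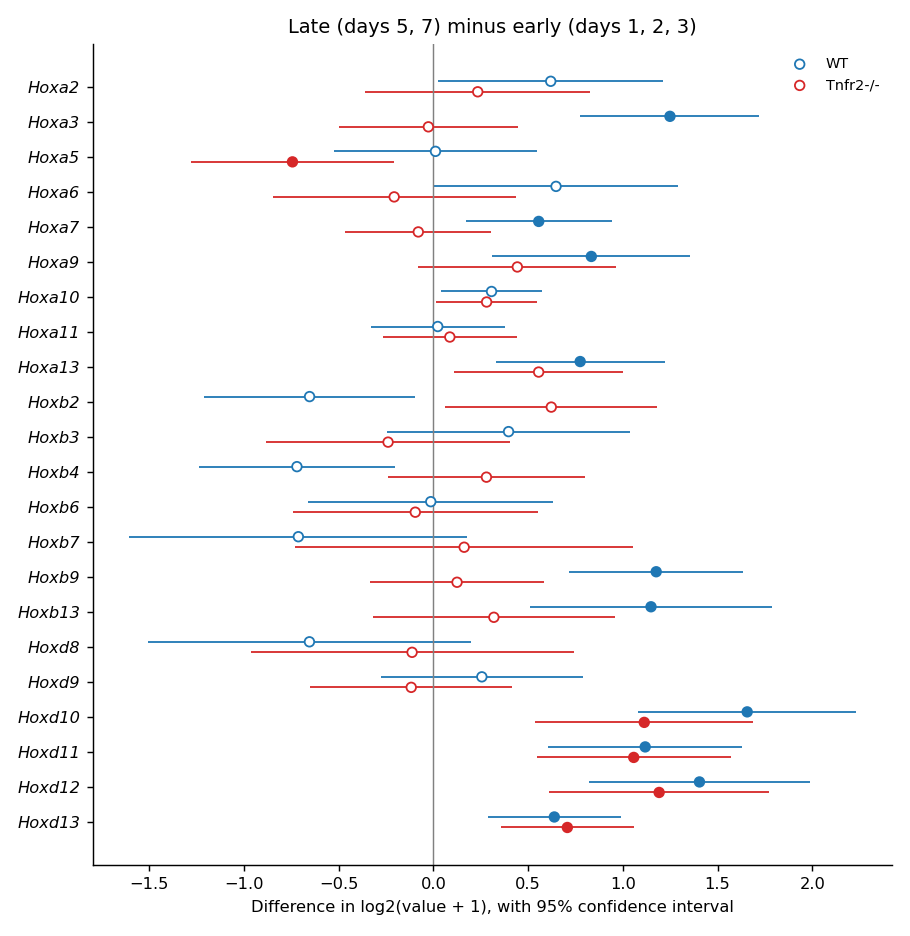
Difference between late (days 5 and 7) and early (days 1, 2 and 3) libraries for 22 of the 23 tested Hox genes in log2(value + 1), with 95% confidence intervals, for WT and Tnfr2-/- colonoids, and filled points for an adjusted p under 0.05. Filled points of both colours occur for Hoxd10, Hoxd11, Hoxd12 and Hoxd13, Hoxa3, Hoxa7, Hoxa9, Hoxa13, Hoxb9 and Hoxb13 are filled for WT and Hoxa5 for Tnfr2-/-, and for none of them did the difference between the genotypes pass its own test.

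Taken within each genotype, 10 Hox genes rose in WT colonoids, where 11.6% of all symbols rose and 20.1% were called in either direction. They were Hoxa3, Hoxa7, Hoxa9, Hoxa13, Hoxb9, Hoxb13 and Hoxd10 to Hoxd13. The WT call of Hoxa7 (0.56 ± 0.18, adjusted p = 0.043) was lost in 25 of 38 alternatives and that of Hoxa9 in 14 of 38, and the other 8 lost it in 0 to 7. In Tnfr2-/- colonoids, where 10.4% of all symbols rose, 9.93% fell and 20.3% were called, 4 Hox genes rose, Hoxd10 to Hoxd13, and Hoxa5 fell by 0.74 ± 0.25 (adjusted p = 0.049). The call of Hoxa5 was lost in 16 of 36 alternatives, and those of Hoxd10 to Hoxd13 in 2 each. Every late library lay above every early library for 5 Hox genes in WT (Hoxa3, Hoxa10, Hoxa13, Hoxb9 and Hoxd11; 4.97% of all symbols) and for 4 in Tnfr2-/- colonoids (Hoxa13, Hoxd10, Hoxd11 and Hoxd13; 9.56%).

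Hoxb13 shows how the mice differed. In WT mouse 1 it read 33, 51.6, 84.2, 143 and 117 on days 1, 2, 3, 5 and 7, and in WT mouse 2 15, 31.5, 49.2, 53.6 and 64. In Tnfr2-/- colonoids it read 33.8, 46.7, 57.4, 62.6 and 40.5 in mouse 1 and 23.6, 43.1, 50.8, 53.8 and 50.8 in mouse 2. All 4 mice were lowest on day 1, and WT mouse 1 stood above WT mouse 2 on every day. The late rise was 1.15 ± 0.30 (adjusted p = 0.016) in WT and 0.32 ± 0.30 (adjusted p = 0.50) in Tnfr2-/- colonoids, and the difference between these rises did not pass the test (-0.83 ± 0.42, adjusted p = 0.47). Hoxb9 read 4.57, 6.06, 9.87, 24.1 and 15.3 in WT mouse 1, 4.41, 6.58, 9.09, 11.5 and 15 in WT mouse 2, 4.89, 9.82, 7.46, 7.93 and 6.86 in Tnfr2-/- mouse 1 and 9.92, 8.73, 7.38, 9.996 and 10.2 in Tnfr2-/- mouse 2. Its late WT values exceeded all late Tnfr2-/- values. The rise was 1.18 ± 0.21 (adjusted p = 0.0024) in WT and 0.12 ± 0.21 (adjusted p = 0.73) in Tnfr2-/- colonoids, with a difference between them of -1.05 ± 0.30 (adjusted p = 0.19).

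The calls of the time comparison depended on which libraries were in the fit. Without the day 5 or the day 7 library of WT mouse 1, 5 Hox genes were called in WT (Hoxa3, Hoxb9 and Hoxd10 to Hoxd12), and without both of them, a choice made after seeing the data, 4 were (Hoxa3, Hoxb9, Hoxd10 and Hoxd12). Leaving out either Tnfr2-/- mouse left those 4 in WT and 0 in Tnfr2-/- colonoids. Hoxd10 to Hoxd13 were higher late in both Tnfr2-/- mice: in Tnfr2-/- mice 1 and 2 the rise was 1.10 and 1.12 for Hoxd10, 0.88 and 1.23 for Hoxd11, 0.86 and 1.53 for Hoxd12 and 0.73 and 0.68 for Hoxd13. Over both genotypes, leaving out a Tnfr2-/- mouse left 3 without mouse 1 (Hoxd10 to Hoxd12) and 5 without mouse 2 (Hoxa10 and Hoxd10 to Hoxd13). Where a mouse is left out, its genotype keeps 1 library per day, and its spread is assumed to be that of the other groups. Of the fibroblast markers, 4 of 12 were called higher late in Tnfr2-/- colonoids (Col1a1, Col1a2, Dcn and Postn), against 10.4% of all symbols, and in WT Thy1 rose and Dcn fell. With the summed fibroblast markers as a covariate, a fit chosen after seeing the data, 10 Hox genes were called higher late over both genotypes, the same 10.

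The second comparison asked whether Tnfr2-/- colonoids differed from WT in Hox expression at the late days. Genes of both signs passed the test: Hoxb2 and Hoxb4 were higher and Hoxa3, Hoxa5 and Hoxa6 lower in Tnfr2-/- libraries, 5 of 23 tested against 6.45% of all symbols. Hoxb2 passed the filter on low values only through the Tnfr2-/- libraries, with means of 0.949 over WT and 2.37 over Tnfr2-/- libraries, so its call is no support for a genotype difference among the Hox genes. The other 4 had means of at least 1 in both genotypes, though Hoxb4 only just so in WT, with 1.00 in mouse 1 and 1.04 in mouse 2. All of them are genes of low paralogue number and low level, and 0 of the 11 tested genes of numbers 9 to 13 were called. Each of the 10 tested HoxA genes was lower in Tnfr2-/- on average, with a median of -0.55, whereas 5 of 7 HoxB genes (median 0.52) and 5 of 6 HoxD genes (median 0.22) were higher. Hoxa2 passed the filter only through the WT libraries, with means of 1.76 and 1.12 in the WT and 0.735 and 0.989 in the Tnfr2-/- mice. Neither Hoxa2 nor Hoxb2 is support for these counts of signs. The median over all symbols was -0.047. Counted over all tested members, the late groups did not overlap for 5 genes with WT above (Hoxa3, Hoxa6, Hoxa7, Hoxa11 and Hoxb9; 6.07% of all symbols) and 3 with Tnfr2-/- above (Hoxb2, Hoxb4 and Hoxb7; 5.35%). Rescaled to an equal sum, these counts were 7 (9.03%) and 3 (3.61%). The limit given for Hoxb2 holds here as well. The HoxA and HoxB counts of signs were the same under each of the 3 other scalings, and the HoxD count was 4 with all libraries rescaled to an equal sum and 6 with quantile normalisation. With the summed fibroblast markers as a covariate, 7 of 10 HoxA genes were lower. Among symbols with a mean of at least 5, 6 of 6 HoxA genes were lower (median -0.44), 1 of 3 HoxB genes was higher (median -0.75) and 3 of 3 HoxD genes were higher (median 0.091). At this higher filter Hoxa3 passed only through the WT and Hoxb7 only through the Tnfr2-/- libraries. The signs were not particular to the late days. Early, 8 of 10 HoxA genes were lower (median -0.11), and 7 of 7 HoxB (median 0.29) and 6 of 6 HoxD genes (median 0.42) were higher.

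Hoxb2, an anterior gene of the hindbrain in the embryo, was at 0.447 and 0.203 in mouse 1 and 0.701 and 0.313 in mouse 2 on days 5 and 7 of WT. In Tnfr2-/- colonoids it was at 2.64 and 3.68 in mouse 1 and 2.62 and 3.79 in mouse 2. The late groups did not overlap, and the difference was 1.56 ± 0.28 (adjusted p = 0.0069). Hoxb4, which in blood is known for its effect on stem cell growth, was at 0 and 1.01 in mouse 1 and 0.214 and 0.582 in mouse 2 in WT and at 2.38 and 1.45 in mouse 1 and 1.87 and 2.79 in mouse 2 in Tnfr2-/- colonoids, again without overlap, and differed by 1.14 ± 0.26 (adjusted p = 0.023). From early to late, the mean log2 values of both genes went down in each WT mouse, by 0.92 and 0.39 for Hoxb2 and by 0.62 and 0.82 for Hoxb4. In the Tnfr2-/- mice they went up by 0.69 and 0.56 for Hoxb2 and by 0.24 and 0.32 for Hoxb4. The change of the genotype difference with time did not pass the test for either gene, with 1.28 ± 0.37 (adjusted p = 0.19) for Hoxb2 and 1.00 ± 0.34 (adjusted p = 0.28) for Hoxb4.

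Hoxa3, a gene of the pharyngeal region in the embryo, was at 11.4 and 10.5 in mouse 1 and 7.86 and 7.32 in mouse 2 on days 5 and 7 in WT and at 5.06 and 3.92 in mouse 1 and 4.68 and 2.77 in mouse 2 in Tnfr2-/- colonoids. All late WT values lay above all late Tnfr2-/- values, and above the early WT range of 1.86 to 5.49. The late genotype difference was -1.01 ± 0.24 (adjusted p = 0.025) and the WT rise 1.25 ± 0.22 (adjusted p = 0.0020), and both use the same 4 late WT libraries. Gm28308, with which Hoxa3 shares sequence, averaged 3.66 in late WT and 2.31 in late Tnfr2-/- libraries, and its part in the Hoxa3 difference was not tested. Hoxa5, which in the embryo acts in lung and gut mesenchyme, was at 8.38 and 7.10 in mouse 1 and 4.24 and 4.10 in mouse 2 in WT and at 3.67 and 1.02 in mouse 1 and 4.39 and 1.31 in mouse 2 in Tnfr2-/- colonoids. The groups overlapped on day 5, where Tnfr2-/- mouse 2 exceeded WT mouse 2, and were apart on day 7, and the difference over both days was -1.03 ± 0.27 (adjusted p = 0.040). Hoxa6 was at 3.79 and 4.41 in mouse 1 and 6.77 and 6.12 in mouse 2 in WT and at 1.52 and 1.91 in mouse 1 and 0 and 2.61 in mouse 2 in Tnfr2-/- colonoids, without overlap, a difference of -1.44 ± 0.33 (adjusted p = 0.021).

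**Figure D4:**
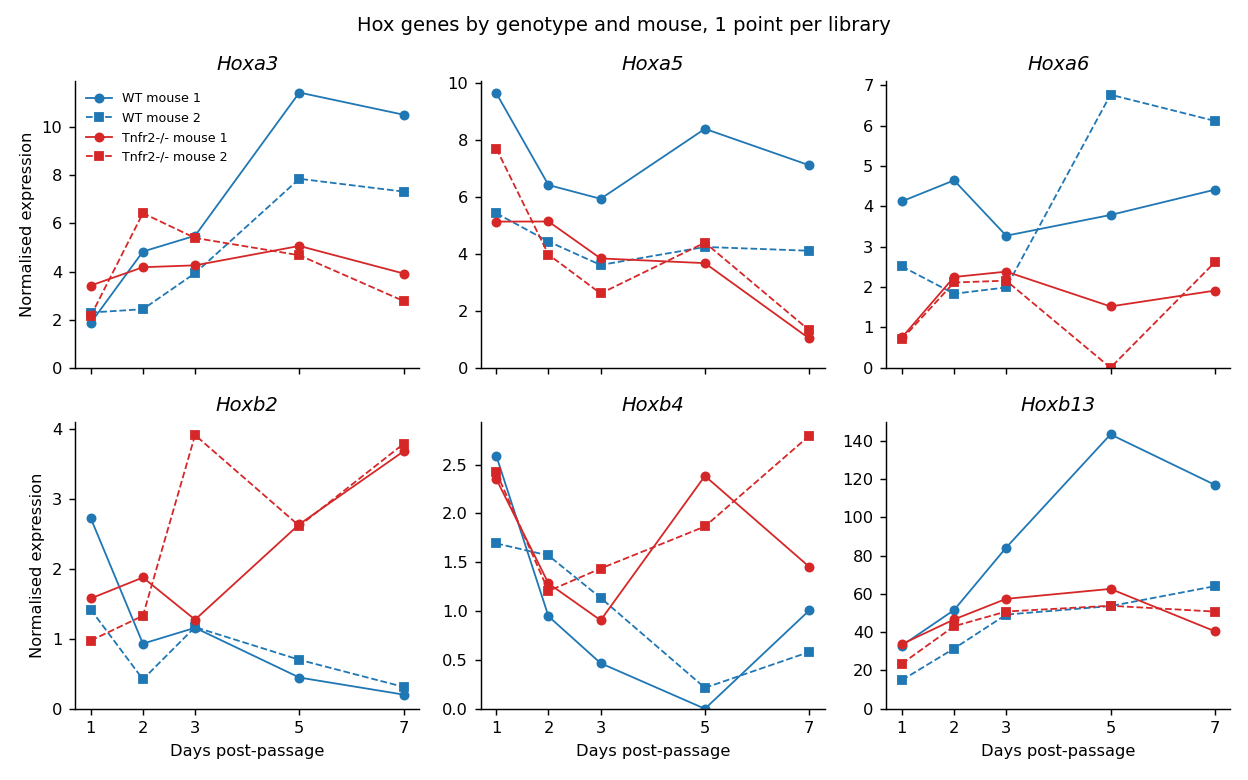
Normalised expression of Hoxa3, Hoxa5, Hoxa6, Hoxb2, Hoxb4 and Hoxb13 against days post-passage, 1 point per library, with blue for WT, red for Tnfr2-/-, circles for mouse 1 and squares for mouse 2. On days 5 and 7 the blue points of Hoxa3 and Hoxa6 lie above the red ones and those of Hoxb2 and Hoxb4 below them.

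These genotype calls need the depth and the culture lines beside them. The authors' own table gives a geometric mean of 5.95 normalised estimated reads per library for Hoxb4 and no such mean for Hoxb2 and Hoxa6, so the read support is low for the first and unknown for the other two. The p-values treat the libraries of a mouse as independent, and with 1 mean per mouse and period 0 Hox genes were called, with adjusted p of 0.20 for Hoxb2 and up to 0.34 for the other 4. Without either Tnfr2-/- mouse 0 Hox genes were called, and without WT mouse 1 the count was 2 (Hoxa6 and Hoxd13). Of the late libraries, leaving out day 5 or day 7 of Tnfr2-/- mouse 2 left Hoxb2 alone, leaving out day 5 or day 7 of Tnfr2-/- mouse 1 or day 5 of WT mouse 1 left 2, and leaving out day 7 of either WT mouse left 3. Of 12 fibroblast markers, 2 were called higher in Tnfr2-/- libraries at the late days, Dcn and Vim, against 3.80% of all symbols. With the fibroblast sum as a covariate, a fit chosen after seeing the data, 2 Hox genes were called, Hoxb7 and Hoxd13, and none of the 5 above. In that fit the difference was 1.40 (adjusted p = 0.14) for Hoxb2, 0.95 (adjusted p = 0.29) for Hoxb4 and -1.41 (adjusted p = 0.21) for Hoxa6, close to the values without the covariate, and it was smaller for Hoxa3, at -0.60 (adjusted p = 0.45), and Hoxa5, at -0.38 (adjusted p = 0.66). At the early days 0 of 23 Hox genes were called by limma against 1.20% of all symbols, and 6 at an unadjusted p under 0.05, against 12.9%. For the change of the genotype difference between early and late days, 0 were called by limma, against 0.148% of all symbols, and 6 at an unadjusted p under 0.05, against 11.7%. On single days, Hoxb2 was called on day 7 (1.91 ± 0.40, adjusted p = 0.045; 0.820% of all symbols), and 0 Hox genes were called on days 1, 2, 3 and 5, against 0.0739%, 0.0960%, 0.155% and 1.65% of all symbols. At an unadjusted p under 0.05 these days gave 2, 0, 3 and 7 Hox genes, against 6.05%, 7.43%, 8.69% and 16.0% of all symbols.

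Over all 5 days, 3 of 23 Hox genes differed between genotypes, against 7.60% of all symbols. Hoxb3 was higher in Tnfr2-/- (0.79 ± 0.22, adjusted p = 0.039), with 0 to 3.61 over the 10 WT and 2.23 to 4.97 over the 10 Tnfr2-/- libraries. Hoxa6 was lower (-0.93 ± 0.24, adjusted p = 0.026), with 1.83 to 6.77 in WT and 0 to 2.61 in Tnfr2-/- libraries. The ranges of both genes overlapped. Hoxa11, a gene of the hindgut and urogenital region and the best covered of the 3, read 16.3, 12, 13.5, 19.9 and 16.3 in WT mouse 1, 19.4, 16.3, 14.8, 13.6 and 13 in WT mouse 2, 9.59, 10.2, 8.98, 11.8 and 11.7 in Tnfr2-/- mouse 1 and 14.6, 14.1, 8.37, 10.3 and 12.1 in Tnfr2-/- mouse 2, on days 1, 2, 3, 5 and 7. Its difference was -0.44 ± 0.11 (adjusted p = 0.020), and the WT range of 12 to 19.9 overlapped the Tnfr2-/- range of 8.37 to 14.6. In a fit that let libraries of 1 mouse correlate, the replicate block, these 3 had limma adjusted p of 0.078 (Hoxb3), 0.066 (Hoxa6) and 0.053 (Hoxa11), so that 0 Hox genes were called, and leaving out either Tnfr2-/- mouse gave 0 as well. Across the alternatives, the call was lost in 22 of 37 for Hoxb3, 8 of 37 for Hoxa6 and 7 of 38 for Hoxa11. Hoxd13 was 0.32 ± 0.10 higher in Tnfr2-/- libraries and did not pass the test (adjusted p = 0.069).

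**Figure D5:**
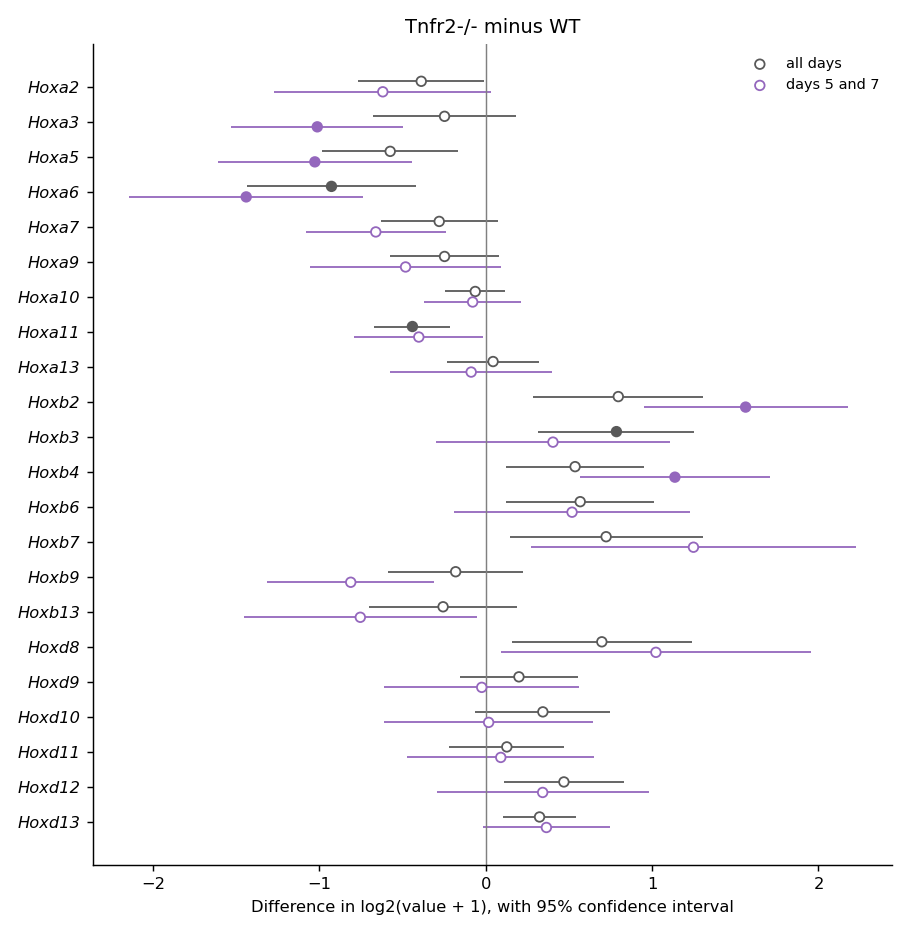
Difference between Tnfr2-/- and WT libraries for 22 of the 23 tested Hox genes in log2(value + 1), with 95% confidence intervals, over all days (grey) and at days 5 and 7 (purple), and filled points for an adjusted p under 0.05. At days 5 and 7 all HoxA points shown lie left of 0, and the filled points on the right are Hoxb2 and Hoxb4.

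The make-up of the Hox pool is given as a description. Hoxd10 to Hoxd13 made up 28.8 to 35.2% of all Hox expression in late Tnfr2-/- libraries and 19.8 to 29.1% in late WT libraries, after 22.3 to 26.7% and 17.5 to 23.9% early. Within group 13, Hoxb13 held 45.2 to 59.2% in late WT and 28.1 to 36.6% in late Tnfr2-/- libraries, after 21.0 to 55.6% and 26.5 to 47.4% early. Hoxd13 held 29.1 to 41.1% of group 13 in late WT and 48.6 to 57.7% in late Tnfr2-/- libraries, after 34.1 to 57.6% and 40.6 to 55.5% early. Within group 13 the genotypes overlapped early and not late for both shares, while the late groups overlapped for the share of Hoxd10 to Hoxd13 in all Hox expression. The 2 shares of group 13 are not independent, as Hoxa13 held only 9.19 to 21.3% of it. By limma at late days neither gene was called, with adjusted p of 0.19 for Hoxb13 and 0.24 for Hoxd13. Shares within other gene groups were not computed for comparison.

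The 2 WT lines differed from each other in Hox level. WT mouse 1 exceeded WT mouse 2 on 5 of 5 days for Hoxa5, Hoxa9, Hoxb3, Hoxb7 and Hoxb13, 5 of 23 tested genes against 8.84% of all symbols, and fell below it on every day for 0 genes against 9.51%. For Hoxa5 the lines did not overlap, with 5.92 to 9.62 in mouse 1 and 3.60 to 5.42 in mouse 2, which held for 0.894% of all symbols. The lines also differed in cell markers: on days 1, 2, 3, 5 and 7 the fibroblast sum was 4707, 3753, 2459, 1484 and 2207 in WT mouse 1 and 4666, 5035, 4582, 4057 and 4981 in WT mouse 2. From day 2 on it was lower in mouse 1, and its part in the Hox differences between the lines was not tested. Between the Tnfr2-/- mice, 0 Hox genes stood higher in the same mouse on all days, against 3.65 and 5.99% of all symbols in the 2 directions. With all libraries rescaled to an equal sum, Hoxa10 stood higher in Tnfr2-/- mouse 1 on all days, against 4.58% of all symbols. Hoxa9 then left the WT list, which held 4 genes against 6.77%. Summed over all 39 genes, normalised expression ran from 205 to 347 in early WT, 323 to 513 in late WT, 255 to 308 in early Tnfr2-/- and 336 to 396 in late Tnfr2-/- libraries.

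The partners of HOX proteins were measured alongside. All 9 TALE cofactors had a mean of at least 1, with Meis2 the highest at 35.4. Meis1, a DNA-binding partner of posterior HOX proteins, was higher in Tnfr2-/- colonoids over all days (1.19 ± 0.15, adjusted p = 1.2e-04) and at late days (1.54 ± 0.22, adjusted p = 0.0015), with 1.94 ± 0.740 in late WT and 7.56 ± 2.01 in late Tnfr2-/- libraries (SD, n = 4 each). It was the 1 of 9 cofactors called in each, against 7.60% of all symbols over all days and 6.45% at late days. From early to late, over both genotypes, Pbx2 rose (0.46 ± 0.16, adjusted p = 0.038) and Meis1 fell by 0.48 ± 0.14 (adjusted p = 0.020). Within genotypes the change of Meis1 was -0.77 ± 0.20 (adjusted p = 0.017) in WT and -0.19 ± 0.20 (adjusted p = 0.57) in Tnfr2-/- colonoids, and the difference between these did not pass the test (0.58 ± 0.28, adjusted p = 0.45). The late ranges of the fibroblast sum overlapped, at 1484 to 4981 in WT and 4119 to 10005 in Tnfr2-/- libraries, and the part of this sum in the Meis1 difference was not tested.

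Of 6 ParaHox genes, the sister group of the Hox genes, Cdx1 and Cdx2 were tested, both regulators of intestinal identity. Cdx1 rose over time in both genotypes together (2.06 ± 0.47, adjusted p = 0.0045). On days 1, 2, 3, 5 and 7 it was at 20.5, 16.2, 33.8, 89.8 and 83.0 in WT mouse 1 and at 2.68, 2.00, 3.46, 19.0 and 36.1 in WT mouse 2, and at 6.85, 4.24, 7.26, 22.8 and 26.1 in Tnfr2-/- mouse 1 and 5.54, 7.36, 8.45, 18.4 and 29.6 in Tnfr2-/- mouse 2. Both late values exceeded all early values in each of the 4 mice, and WT mouse 1 stood above the other mice on every day. Cdx2, at a mean of 4.62, did not pass the test (0.25 ± 0.24, adjusted p = 0.47), and neither gene was called between genotypes. Of 9 tested regional gut factors, 5 rose over time and 0 fell, against 18.0 and 14.7% of all symbols, among them Onecut2 (1.48 ± 0.24, adjusted p = 4.4e-04), Hnf4a (1.21 ± 0.26, adjusted p = 0.0034), which with a mean of 86.5 was the highest of the list, Evx1 (0.78 ± 0.18, adjusted p = 0.0046) and Evx2 (0.60 ± 0.20, adjusted p = 0.036). Evx1 and Evx2 are homeobox genes next to the posterior ends of HoxA and HoxD. Both had a mean under 1 over the early libraries and passed the filter only through the late ones. Their calls are therefore no support for a rise of the gut factors. Gata4, Gata5, Sox2 and Barx1, factors of the foregut and small intestine, had means under 1. Between genotypes, Evx1 (0.66 ± 0.17, adjusted p = 0.027) and Onecut2 (0.86 ± 0.24, adjusted p = 0.036) were higher in Tnfr2-/- over all days, 2 of 9 against 4.51% of all symbols. Foxf1 (1.03 ± 0.28, adjusted p = 0.043), a factor of gut mesenchyme, was higher at late days, 1 of 9 against 3.80%. Evx1 had a mean under 1 over the WT libraries and passed the filter only through the Tnfr2-/- ones. Its call is therefore no support for a genotype difference.

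Regulators of Hox chromatin and of the retinoid pathway, which sets Hox domains in the embryo, made up the last lists. All 28 Polycomb and Trithorax regulators were tested, and over time 6 rose and 3 fell, again against 18.0 and 14.7% of all symbols, among them Phc2, the highest of the list, which fell by 0.42 ± 0.078 (adjusted p = 0.0012). The H3K27 methyltransferase gene Ezh2 fell by 0.49 ± 0.13 (adjusted p = 0.010), and the demethylase gene Kdm6b rose (0.51 ± 0.11, adjusted p = 0.0037), as did Pcgf2 (0.30 ± 0.073, adjusted p = 0.0059). Between genotypes at late days, 1 of 28 was called, against 6.45% of all symbols, namely Pcgf2, which was lower in Tnfr2-/- (-0.49 ± 0.11, adjusted p = 0.023). In the retinoid pathway, 5 of 13 tested genes were higher and 1 lower in Tnfr2-/- at late days, against 3.80 and 2.64% of all symbols. Among those higher were Crabp1 (2.79 ± 0.32, adjusted p = 2.5e-04), a retinoic acid binding protein, Dhrs3 (2.40 ± 0.27, adjusted p = 2.5e-04), a retinal reductase, and Stra6 (2.59 ± 0.42, adjusted p = 0.0034), a retinol carrier receptor. Over time 3 of 13 rose and 1 fell, with the same 18.0 and 14.7% of all symbols beside them. Over all days, 5 of 13 were higher and 1 lower in Tnfr2-/-, against 4.51 and 3.09% of all symbols. The part of the fibroblast sums in these differences was not tested. Crabp1 was the highest of the list with a mean of 384.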

How the data were processed

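RNA from 20 colonoid cultures (2 mice per genotype, 5 days each) was sequenced as stranded mRNA libraries with single-end reads. The submitters' processing notes name CASAVA, kallisto, sleuth and mm10. The authors deposited a signal per transcript, read here as kallisto's TPM value divided by sleuth's size factor of the library. This reading comes from the tools named, the form of the table and library sums of 900655 to 1111080, and no source used here states it. The deposited mean natural log of normalised estimated counts, whose exponent is a geometric mean, served only to show read support. The study's methods give an approximate read number per sample and the table no total per library, so the depth of single libraries is unknown. The deposited p-values, q-values and statistics hold the authors' genotype test and were not used. 781 repeated rows were dropped, and 113193 transcripts were summed to 35240 symbols (199 transcripts had no symbol). Symbols with a mean of at least 1 (13539) were taken as log2(value + 1). limma 3.58.1 with an intensity trend (R 4.3.3) was fitted to all of them, with day and genotype for the comparison over all days and 10 group means for the others. A gene was called at a Benjamini-Hochberg adjusted p under 0.05 over all symbols. The fit was tested on simulated data. Members and lists were chosen with earlier results of these data known. The tested Hox genes are named, and from each list the highest member and up to 4 called members per comparison. A few results that the rule would name are not reported here. The gut factors of mean under 1 and single markers were named after their values were seen. The lists were TALE cofactors, ParaHox genes, regional gut factors, Polycomb and Trithorax regulators, the retinoid pathway and markers of 6 cell classes. Non-coding Hox transcripts were not analysed here. Libraries of 1 genotype and replicate number were treated as 1 mouse, since the series gives replicates as mice, though no label states that a number marks the same mouse on every day. Their deviations correlated at 0.0997 to 0.307 in WT and -0.051 to 0.080 in Tnfr2-/- colonoids, the latter no more than libraries that share a number across genotypes (-0.054 to 0.076), which are different mice. The p-values treat the libraries as independent. Alternatives were other pseudocounts, filters and scalings, sums per Ensembl gene, the mouse as a block, mouse means, a fibroblast covariate and leaving out each library or mouse.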

Additional observations from a re-analysis of the deposited data

How the results depend on the processing

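Over the alternatives, 0 of 161 Hox gene values reversed as a called value: of 5972 alternative values, 5701 kept their side of the threshold, 197 lost and 74 gained a call. The counts of called Hox genes moved more. Leaving out a library or mouse gave 0 to 4 for genotype over all days (3 with all libraries), 0 to 1 at early days (0), 0 to 7 at late days (5), 0 to 1 for the change of the genotype difference (0), 4 to 11 for time in WT (10), 0 to 6 for time in Tnfr2-/- (5) and 3 to 10 for time over both genotypes (10). The 1 gene at early days was Hoxb3 (without WT mouse 1 or the day 7 library of either WT mouse), and the 1 gene for the change was Hoxb9 (without day 5 of WT mouse 2). Without either Tnfr2-/- mouse the late genotype count and the Tnfr2-/- time count were 0. Without both late libraries of WT mouse 1, chosen after seeing the data, the late genotype count was 2. Only symbols with a mean of at least 5 gave 1 over all days, 1 at late days and 3 for time in Tnfr2-/-, with fewer genes tested. Mouse means gave 0 over all days and 0 at late days, with fewer samples. The replicate block gave 0 over all days where libraries of 1 mouse could correlate and moved no other count by over 1.5 times, and with the replicate number as a fixed term it gave 5 over all days and 1 at early days. The fibroblast covariate, also chosen after seeing the data, gave 1 at early and 2 at late days. The causes of the other moves were not tested. The share of paralogues 9 to 13 was 85.0% with medians and 85.2% with the highest transcript of each gene. Rescaling all libraries to an equal sum moved the median of all symbols to -0.12 at late days. Genes of a few units rest on few reads.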
